A study of Mus musculus with 15 samples.

Results

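*Csf1*, *Csf1r*, *Csf2ra*, *Csf2rb*, *Csf2rb2*, *Csf3r*, *Il10ra*, *Il10rb*, *Il6ra* and *Il6st* encode 1 colony-stimulating factor and the receptor chains through which macrophages sense colony-stimulating factors, interleukin-10 and cytokines of the interleukin-6 family. They were taken from the gene tables by symbol, 10 of 54390 listed genes, and all 10 had enough reads to be tested. RNA was sequenced from BV2 cells, an immortalized mouse microglial line. WT non-foamy cells (WT_NF, n = 4 libraries) and Trem2-/- non-foamy cells (KO_NF, n = 3) received media without cholesterol, and WT foamy cells (WT_F, n = 4) and Trem2-/- foamy cells (KO_F, n = 4) received 20 μg/ml of soluble cholesterol overnight. Trem2-/- cells were derived with CRISPR-Cas9 by cloning from a BV2 line that was itself 1 Cas9 clone. How many Trem2-/- clones the libraries hold is not stated in the sources used here, and genotype and clone cannot be told apart. The soluble cholesterol was carried by methyl-beta-cyclodextrin, and no cells given the carrier alone are among these groups.

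Macrophages and microglia depend on CSF1R, a receptor tyrosine kinase for CSF1 and IL-34, for survival and proliferation. The GM-CSF, IL-3 and IL-5 receptors pair a ligand-specific alpha chain with a beta chain that signals through JAK2 and STAT5, while the IL-10 receptor signals through JAK1, TYK2 and STAT3. GP130, encoded by *Il6st*, is the signalling chain that the interleukin-6 family shares, and IL-6 reaches it once bound to the IL-6 receptor alpha chain.

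Libraries held 23538963 to 41683825 counted reads, with 5.83 to 8.05% of reads on mitochondrial genes. *Trem2* transcript fell in Trem2-/- libraries, by 0.67 on the log2 scale without cholesterol (adjusted p = 2.85e-07, edgeR quasi-likelihood test) and by 0.73 with it (adjusted p = 7.09e-08, edgeR). WT non-foamy replicate 3, the shallowest library, and Trem2-/- foamy replicate 4 stood apart from their groups on later principal components, and results are given without them where that moved a call. *Abca1*, an LXR target that exports cholesterol, was higher in WT foamy than in WT non-foamy libraries (log2 fold change 0.82, adjusted p = 3e-05, edgeR). In Trem2-/- cells it was lower in the libraries labelled foamy (−0.49, adjusted p = 0.0478, edgeR). *Cyp51*, a sterol synthesis enzyme under SREBP2, moved by −0.78 in WT (adjusted p = 1.56e-08, edgeR) and by 0.53 in Trem2-/- cells (adjusted p = 7.76e-05, edgeR). Both sterol genes thus moved in opposite directions under the labels of the 2 genotypes. Another 3 lipid genes were looked at after the values were seen. *Plin2*, a coat protein of lipid droplets, was higher in the Trem2-/- libraries labelled foamy (0.58, adjusted p = 0.000184, edgeR) and differed by −0.05 in WT (adjusted p = 0.781, edgeR). In Trem2-/- cells *Stard4*, a sterol carrier, differed by 0.27 (adjusted p = 0.179, edgeR) and *Fabp5*, a fatty acid carrier, by 0.02 (adjusted p = 0.988, edgeR), and in WT *Stard4* fell by 0.51 (adjusted p = 2.8e-05, edgeR) and *Fabp5* differed by −0.04 (adjusted p = 0.848, edgeR). A different response of Trem2-/- cells and an exchange of their treatment labels cannot be told apart, so the comparisons of genotypes were also made over the mean of both treatments and with the treatments crossed.

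Of 12 markers of microglia and macrophages, 7 were higher and 2 lower in Trem2-/- libraries in each comparison of genotypes, beside 21% and 22.6% of all genes without cholesterol and 14.3% and 15.9% with it. Their summed level was 3691 to 4651 CPM (reads scaled to library size, after TMM) in WT_NF, 3861 to 4639 in WT_F, 5493 to 5597 in KO_NF and 5400 to 5707 in KO_F. The homeostatic microglial markers *P2ry12*, *Cx3cr1* and *Tmem119* were near the limit of counting, with means of at most 1.76, 1.54 and 0.412 CPM in any group. *P2ry12*, a purinergic receptor, was lower in Trem2-/- cells by 1.51 without and 1.12 with cholesterol on the log2 scale (adjusted p = 0.000302 and 0.00254, edgeR). Of 20 markers of other cell types, 10 had no read in any library and the summed level of the list did not exceed 3.42 CPM. The part of these marker levels in the results below was not tested, and in bulk RNA a change in the make-up of a culture and a change in RNA per cell cannot be told apart.

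Per length of exon, *Csf1r* was by far the most abundant of the 10 transcripts, at 81.3 ± 15.5 CPM per kb (mean ± s.d. over 15 libraries). *Il10rb* followed at 23.1 ± 5.16, *Csf2rb* at 21.2 ± 3.53, *Csf2rb2* at 17.5 ± 4.56 and *Il10ra* at 11.9 ± 2.11 CPM per kb. *Csf1* lay at 9.78 ± 1.36, *Il6st* at 6.83 ± 0.75, *Csf2ra* at 5.55 ± 0.94, *Il6ra* at 4.47 ± 0.57 and *Csf3r* at 1.93 ± 0.44 CPM per kb. In 3 receptors the shared chain was read at a higher level per length than its ligand-specific partner: *Csf2rb* over *Csf2ra*, *Il10rb* over *Il10ra* and *Il6st* over *Il6ra*.

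**Figure D1:**
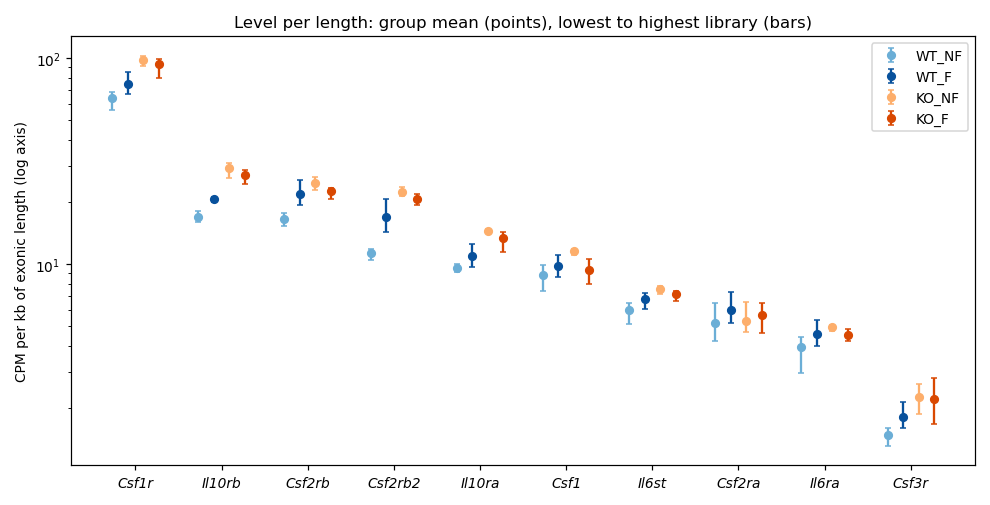
Level of each transcript in CPM per kb of exonic length (log axis) in the 4 groups. Points are group means, bars run from the lowest to the highest library (n = 4, 4, 3 and 4). *Csf1r* lies above the other genes in every group and *Csf3r* below them.

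The mean of the WT non-foamy libraries was the lowest of the 4 groups for all 10 genes, and the mean of the Trem2-/- non-foamy libraries was the highest for 9 of them. The exception was *Csf2ra*, which was highest in WT foamy libraries and, with scaling by library totals alone, lower in KO_NF than in WT_NF by a log2 fold change of −0.085 that was not called. In WT cells, cholesterol was followed by higher *Csf2rb*, *Csf2rb2* and *Il10rb*, where 1.66% of the 14237 tested genes were called higher (adjusted p under 0.05, edgeR). The groups did not overlap for these 3 genes, as for 4.56% of all genes in that direction. All 10 log2 fold changes were above 0, as were 51.2% over all tested genes, with a median of 0.22 against 0.01.

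In Trem2-/- cells none of the 10 was called between foamy and non-foamy libraries (edgeR), where 0.14% of all genes were. At an unadjusted p under 0.05 the count was 1, *Csf1*, and DESeq2 called 0. The log2 fold changes were below 0 for 9 of 10 genes, with a median of −0.10, where 51.3% of all genes were above 0. The log2 fold change of *Csf3r* was 0.08 without Trem2-/- foamy replicate 4.

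Without cholesterol, Trem2-/- libraries were higher than WT for 9 of the 10 genes (edgeR), beside 21% of all genes, and their ranges did not overlap for 9, beside 22.6% of all genes in that direction. The median log2 fold change was 0.59 against 0.02 over all genes. With cholesterol, 4 genes were higher in Trem2-/- cells (*Csf1r*, *Csf2rb2*, *Il10ra* and *Il10rb*), beside 14.3% of all genes. The ranges did not overlap for *Il10rb* alone among the 10, beside 13.8% of all genes. Over the mean of both treatments 7 genes were higher, beside 24.9% of all genes. With scaling by library totals alone this count was 5, since *Csf2rb* (0.18, adjusted p = 0.059, edgeR) and *Il6st* (0.07, adjusted p = 0.422, edgeR) lost their calls. It was 8 without Trem2-/- foamy replicate 4, where *Csf1* was called at 0.20 (adjusted p = 0.0208, edgeR), and 8 without both libraries that stood apart (*Csf1* 0.16, adjusted p = 0.0265, edgeR). *Csf1* and *Il6ra* were both called without any 1 of WT non-foamy replicates 2 and 4 and WT foamy replicate 1, giving 9. With treatments crossed, 7 were higher in KO_F against WT_NF (20.6% of all genes) and 4 in KO_NF against WT_F (15.1% of all genes).

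The response to cholesterol itself differed between the genotypes for *Csf2rb*, *Csf2rb2* and *Il10rb*, each lower in Trem2-/- than in WT cells (interaction term, edgeR), beside 1.64% of all genes. All 10 interaction terms were below 0, with a median of −0.33, where 49.6% of all genes were above 0. The interaction term of *Csf2ra* was 0.05 without Trem2-/- non-foamy replicate 3. The 10 genes were read in the same libraries, so their signs are not independent of each other. With an exchange of the Trem2-/- treatment labels the Trem2-/- responses would keep their size and change sign, and the interaction was not tested under it. The cholesterol response in WT, the comparison of non-foamy genotypes and the interaction all use the WT non-foamy libraries, so they are not independent of each other. Scaling by library totals alone moved the median log2 fold change of all genes to −0.12 (KO_NF against WT_NF) and −0.13 (KO_F against WT_F). Under it, the share of called genes that were higher was 29.4% in place of 48.1% and 23.3% in place of 47.4%, 41.8% in place of 59.4% for the WT response, and 70.3% in place of 54.8% for the interaction. With that scaling 6 genes stayed higher in the non-foamy comparison (*Csf1r*, *Csf2rb*, *Csf2rb2*, *Csf3r*, *Il10ra* and *Il10rb*), and *Il10rb* was the 1 gene still called in the foamy comparison.

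**Figure D2:**
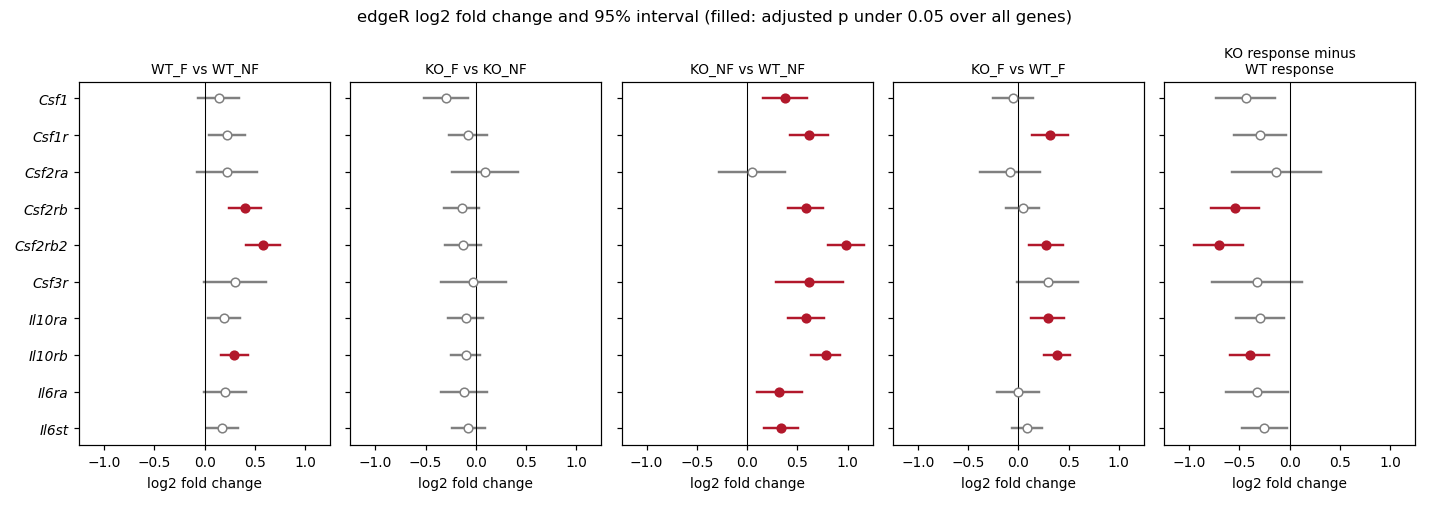
Log2 fold change (x axis) of each gene in the 2 cholesterol comparisons, the 2 comparisons of genotypes and the interaction. Bars are 95% intervals from the edgeR fit, and filled red points passed an adjusted p of 0.05 over all genes: 3, 0, 9, 4 and 3 genes from left to right.

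*Csf1* (chromosome 3, 107741048 to 107760469, GRCm38) encodes the ligand of CSF1R and is made by the macrophages themselves. It was read at 44.9, 52.1, 38.9 and 51.3 CPM in WT non-foamy and at 58.3, 53.6, 48.8 and 45.8 CPM in WT foamy libraries. Trem2-/- non-foamy libraries had 58.1, 62.2 and 62.5 CPM and Trem2-/- foamy libraries 46.0, 55.9, 54.4 and 42.1 CPM. The 3 Trem2-/- non-foamy libraries lay above every library of WT_NF and of KO_F, while the other 3 groups overlapped. *Csf1* was higher in KO_NF than in WT_NF by a log2 fold change of 0.38 (95% interval 0.16 to 0.59, adjusted p = 0.00495, edgeR). With the treatments crossed the difference was 0.08 for KO_F against WT_NF (adjusted p = 0.533, edgeR) and 0.24 for KO_NF against WT_F (adjusted p = 0.0823, edgeR). In Trem2-/- cells the foamy against non-foamy difference was −0.30 (95% interval −0.51 to −0.08), which did not pass over all genes (adjusted p = 0.616, edgeR). The ranges did not overlap there, as for 3.88% of all genes in that direction.

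*Csf1r* (chromosome 18, 61100598 to 61132149, GRCm38) encodes the receptor of CSF1 and IL-34. Its levels were 380, 396, 324 and 378 CPM in WT_NF, 493, 460, 385 and 387 in WT_F, 577, 528 and 591 in KO_NF and 562, 570, 551 and 462 in KO_F. All 3 Trem2-/- non-foamy libraries were above all 8 WT libraries, and the lowest Trem2-/- foamy library fell within the range of WT foamy cells. Trem2-/- against WT gave a log2 fold change of 0.61 without cholesterol (95% interval 0.42 to 0.80, adjusted p = 8.86e-06, edgeR). With cholesterol it was 0.31 (0.14 to 0.49, adjusted p = 0.00691, edgeR), and over the mean of both treatments 0.46 (0.33 to 0.59, adjusted p = 1.54e-06, edgeR). The WT response of 0.22 (0.05 to 0.40) did not pass (adjusted p = 0.172, edgeR), nor did the Trem2-/- response of −0.08 (−0.27 to 0.11). On the opposite strand *Hmgxb3* overlaps 15.1% of the exonic bases of *Csf1r*, and it was read at 11.3 to 19.3 CPM.

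Per kb, *Csf1* reads per *Csf1r* read came to 0.138 ± 0.00953 in WT_NF, 0.131 ± 0.00499 in WT_F, 0.118 ± 0.00964 in KO_NF and 0.101 ± 0.00854 in KO_F (mean ± s.d.). The KO_F libraries were all below the WT_F libraries (exact permutation test, two-sided p = 0.0286, the smallest that 4 against 4 allows). KO_NF libraries were all below WT_NF libraries, and KO_F below KO_NF (exact p = 0.0571 for each, the smallest possible). Each became 0.163 after adjustment over the 20 ratio tests made, and the WT groups overlapped (exact p = 0.229).

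**Figure D3:**
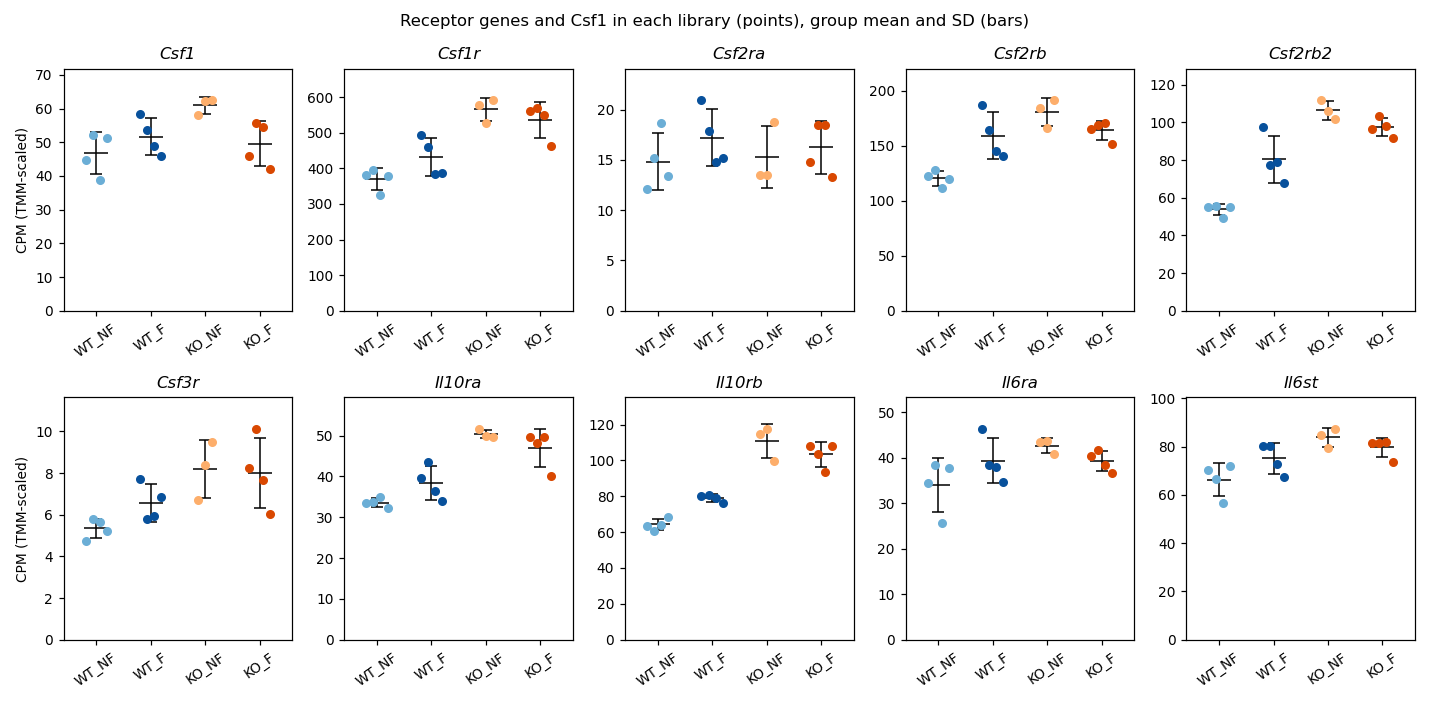
Level of the 10 genes in CPM in every library (points), with group means and s.d. (bars), all axes starting at 0. Trem2-/- non-foamy libraries are the highest group for each gene except *Csf2ra*, and *Csf2rb*, *Csf2rb2* and *Il10rb* show WT foamy libraries above all WT non-foamy ones.

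The mouse has a pair of beta chains on chromosome 15. *Csf2rb* (78325752 to 78353847, plus strand, GRCm38) encodes the common chain used by the GM-CSF, IL-3 and IL-5 receptors, and *Csf2rb2* (78282507 to 78305721, minus strand) encodes the chain used by the IL-3 receptor alone. Their coding sequences (2688 and 2634 bases in GENCODE M21) align over 2628 positions with 125 substitutions, 95.2% identity, and share an identical run of 242 bases. Sequences are shown because the reads of the 2 genes can be told apart at some places and not at others, and how reads that match both were counted is not stated. A stretch of coding exon 8 is the same in both genes (*Csf2rb* chr15:78341658-78341747, *Csf2rb2* chr15:78291563-78291652), and a stretch of exon 4 (chr15:78338897-78338986 and chr15:78294345-78294434) holds 16 substitutions in 90 bases. Each is given 5′ to 3′ on the coding strand, with the bases that differ in capitals.
Both genes, exon 8: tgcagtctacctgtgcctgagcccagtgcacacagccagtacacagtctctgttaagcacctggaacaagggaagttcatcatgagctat
Csf2rb, exon 4: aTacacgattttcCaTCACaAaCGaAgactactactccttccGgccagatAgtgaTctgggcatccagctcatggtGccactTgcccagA
Csf2rb2, exon 4: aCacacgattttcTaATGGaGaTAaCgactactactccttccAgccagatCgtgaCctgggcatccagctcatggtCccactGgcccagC

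Over the whole transcripts, 12.3% of the 50-base stretches of *Csf2rb* and 18.9% of those of *Csf2rb2* occur in another annotated gene, mainly in each other. How far this affected the counts of the 2 genes is not known, and they were also tested as a sum.

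*Csf2rb2* showed the largest difference of the 10 genes both between treatments in WT and between non-foamy genotypes. Its WT non-foamy libraries had 54.9, 55.8, 49.5 and 55.0 CPM and its WT foamy libraries 97.8, 77.4, 78.9 and 68.0 CPM. Trem2-/- non-foamy libraries had 112, 106 and 101.6 CPM and Trem2-/- foamy libraries 96.7, 103, 98.3 and 91.9 CPM. All WT non-foamy libraries lay below every other library, and WT foamy replicate 1 alone of the WT foamy libraries reached the range of Trem2-/- foamy cells. The WT response was 0.58 (95% interval 0.41 to 0.75, adjusted p = 0.000245, edgeR) and the Trem2-/- response −0.13 (−0.31 to 0.05, adjusted p = 0.867, edgeR), an interaction of −0.71 (−0.95 to −0.46, adjusted p = 0.00139, edgeR). Trem2-/- against WT was 0.98 without cholesterol (0.80 to 1.17, adjusted p = 5.66e-09, edgeR) and 0.28 with it (0.11 to 0.44, adjusted p = 0.0118, edgeR). Without WT foamy replicate 4 the second of these was 0.20 with an adjusted p of 0.0584 (edgeR).

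*Csf2rb* followed the same order at a smaller scale. It was read at 122, 128, 111 and 119 CPM in WT_NF, 187, 164, 145 and 140 in WT_F, 184, 166 and 191 in KO_NF and 165, 169, 170 and 151 in KO_F. WT non-foamy libraries lay below all others, and the other 3 groups overlapped. The WT response was 0.40 (95% interval 0.24 to 0.57, adjusted p = 0.00565, edgeR), the Trem2-/- response −0.14 (−0.31 to 0.04) and the interaction −0.54 (−0.78 to −0.30, adjusted p = 0.0103, edgeR). Trem2-/- against WT was 0.59 without cholesterol (0.41 to 0.76, adjusted p = 5.71e-06, edgeR) and 0.04 with it (−0.12 to 0.21, adjusted p = 0.72, edgeR). Reads of both beta chains summed gave a WT response of 0.46 (adjusted p = 0.00156, edgeR), an interaction of −0.59 (adjusted p = 0.00443, edgeR) and a non-foamy difference of 0.72 (adjusted p = 2.26e-07, edgeR). The summed foamy difference of 0.13 did not pass (adjusted p = 0.229, edgeR).

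*Csf2rb2* reads per *Csf2rb* read, each per kb, were 0.690, 0.669, 0.682 and 0.707 in WT_NF and 0.804, 0.724, 0.836 and 0.745 in WT_F. They were 0.932, 0.980 and 0.815 in KO_NF and 0.899, 0.939, 0.886 and 0.934 in KO_F. WT foamy libraries lay above WT non-foamy ones (exact permutation test, two-sided p = 0.0286, the smallest possible), Trem2-/- foamy above WT foamy (exact p = 0.0286, the smallest possible) and Trem2-/- non-foamy above WT non-foamy (exact p = 0.0571, the smallest possible). Each became 0.163 after adjustment over the 20 ratio tests, and the 2 Trem2-/- groups overlapped (exact p = 0.857).

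**Figure D4:**
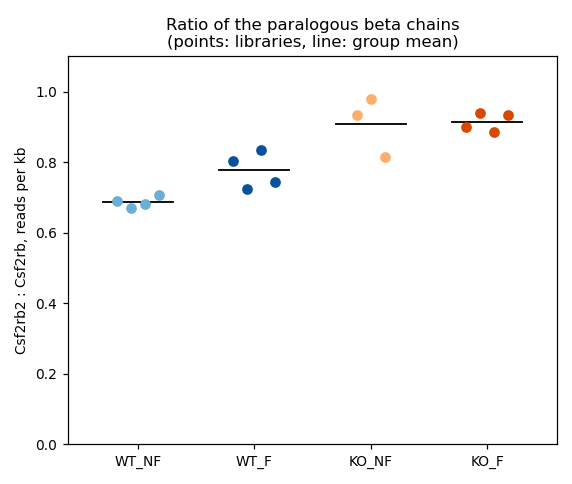
*Csf2rb2* reads per kb divided by *Csf2rb* reads per kb (y axis, from 0) in each library, with a line at each group mean. The means are 0.687 in WT_NF, 0.777 in WT_F, 0.909 in KO_NF and 0.914 in KO_F.

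*Csf2ra* (chromosome 19, 61223957 to 61228429), the GM-CSF receptor alpha chain, did not show the pattern of its beta chain. Its levels were 12.1 to 18.6 CPM in WT_NF, 14.8 to 20.9 in WT_F, 13.5 to 18.8 in KO_NF and 13.3 to 18.5 in KO_F, and all groups overlapped. The log2 fold change was 0.23 for the WT response (95% interval −0.07 to 0.53), 0.09 for the Trem2-/- response (−0.23 to 0.42), 0.05 for Trem2-/- against WT without cholesterol (−0.28 to 0.38) and −0.08 with it (−0.38 to 0.21), none of them called. The interval without cholesterol includes the differences called there for *Il6ra* and *Il6st*. Per kb, *Csf2ra* reads per *Csf2rb* read were 0.315 ± 0.0752 in WT_NF and 0.213 ± 0.0325 in KO_NF, without overlap (exact permutation test, two-sided p = 0.0571, the smallest possible, 0.163 adjusted).

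The 250 bases before the RefSeq start are shown for the beta chain with the largest difference. They are also shown for the alpha chain that was called in no comparison. RefSeq promoters were used for 6 of the 10 genes (build GRCm38.p6). Capitals mark matches on either strand to GAGGAA, the core bound by PU.1, and to TTCNNNGAA, the STAT motif. No match was found in either window to TTGCNNAA (C/EBP) or TGANTCA (AP-1).
Csf2rb2, chr15:78305722-78305971, minus strand: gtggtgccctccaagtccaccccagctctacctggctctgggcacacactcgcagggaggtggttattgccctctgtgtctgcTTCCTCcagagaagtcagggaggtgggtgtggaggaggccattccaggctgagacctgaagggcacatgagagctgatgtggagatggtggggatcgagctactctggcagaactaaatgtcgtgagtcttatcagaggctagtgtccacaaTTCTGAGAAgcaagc
Csf2ra, chr19:61228419-61228668, minus strand: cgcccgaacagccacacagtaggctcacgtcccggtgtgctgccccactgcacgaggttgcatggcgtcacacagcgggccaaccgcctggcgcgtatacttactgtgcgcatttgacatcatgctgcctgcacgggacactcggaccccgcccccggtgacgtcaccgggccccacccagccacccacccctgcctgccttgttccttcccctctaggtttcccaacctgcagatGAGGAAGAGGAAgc

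The *Csf2rb2* window held 1 match to each of the 2 motifs and the *Csf2ra* window 2 adjoining matches to GAGGAA. Of 32851 RefSeq promoter windows of this length, 23.3% held GAGGAA and 7.02% held TTCNNNGAA, while 9.56% and 6.75% held the C/EBP and AP-1 letters. The *Il6ra* and *Csf3r* windows held 1 GAGGAA match each, and those of *Csf1* and *Il6st* held none of the 4 motifs. No promoter window of *Csf1r*, *Csf2rb*, *Il10ra* or *Il10rb* was used, so the motifs were not searched for in these genes.

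*Csf3r* (chromosome 4, 126024550 to 126044440), the G-CSF receptor of neutrophils and some macrophages, was the least abundant of the 10. It was read at 4.75 to 5.80 CPM in WT_NF, 5.77 to 7.71 in WT_F, 6.72 to 9.47 in KO_NF and 6.05 to 10.1 in KO_F. Trem2-/- libraries were above WT non-foamy ones and overlapped WT foamy ones. The non-foamy difference was 0.62 (95% interval 0.29 to 0.95, adjusted p = 0.00294, edgeR), and the foamy one was 0.29 (−0.01 to 0.59, adjusted p = 0.139, edgeR). Without Trem2-/- foamy replicate 4, which stood apart, the foamy difference was 0.40 with an adjusted p of 0.0404 (edgeR). For 10.7% of its 50-base stretches the same sequence occurs in another annotated gene.

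*Il10ra* (chromosome 9, 45253837 to 45269149) encodes the chain that binds IL-10 itself. WT non-foamy libraries had 33.5, 33.8, 34.9 and 32.2 CPM, WT foamy 39.6, 43.6, 36.3 and 33.9, Trem2-/- non-foamy 51.6, 49.8 and 49.6, and Trem2-/- foamy 49.7, 48.2, 49.6 and 40.2. All Trem2-/- libraries but foamy replicate 4 were above all WT libraries. Trem2-/- against WT was 0.59 without cholesterol (95% interval 0.41 to 0.76, adjusted p = 5.94e-06, edgeR) and 0.29 with it (0.13 to 0.45, adjusted p = 0.00666, edgeR). The WT response of 0.19 (0.03 to 0.36) did not pass (adjusted p = 0.205, edgeR).

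*Il10rb* (chromosome 16, 91406164 to 91425834) encodes the partner chain of the IL-10 receptor, which the receptors for IL-22 and interferon lambda also use. It was read at 63.7, 60.9, 64.3 and 68.6 CPM in WT_NF, 80.4, 80.8, 79.2 and 76.2 in WT_F, 115, 118 and 99.7 in KO_NF and 108, 104, 93.4 and 108 in KO_F. The ranges lay at 3 separate levels, rising from WT non-foamy to WT foamy to both Trem2-/- groups, and the 2 Trem2-/- groups overlapped. The WT response was 0.30 (95% interval 0.16 to 0.43, adjusted p = 0.0134, edgeR), the Trem2-/- response −0.10 (−0.24 to 0.04) and the interaction −0.40 (−0.59 to −0.20, adjusted p = 0.0224, edgeR). Trem2-/- against WT was 0.78 without cholesterol (0.64 to 0.93, adjusted p = 5.73e-09, edgeR) and 0.38 with it (0.25 to 0.52, adjusted p = 9e-05, edgeR). Its WT response lost its call without WT foamy replicate 2 (adjusted p = 0.059), and its interaction without that library or any 1 of Trem2-/- non-foamy replicates 1 and 2 and Trem2-/- foamy replicate 3 (adjusted p = 0.05 to 0.0852). A readthrough gene model on the same strand covers 14.9% of its exonic bases.

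*Il6ra* (chromosome 3, 89864059 to 89913196), the IL-6 binding chain, had 34.4, 38.4, 25.6 and 37.7 CPM in WT_NF, 46.3, 38.5, 38.0 and 34.7 in WT_F, 43.5, 43.8 and 40.8 in KO_NF and 40.3, 41.8, 38.5 and 36.6 in KO_F. WT non-foamy replicate 3 was the lowest library, and Trem2-/- non-foamy libraries were above the 4 WT non-foamy ones. That difference was 0.32 (95% interval 0.10 to 0.55, adjusted p = 0.02, edgeR). It lost its call without WT non-foamy replicate 3 (0.21, adjusted p = 0.054, edgeR) and without Trem2-/- non-foamy replicate 1 or 2 (adjusted p = 0.0648 and 0.0662). With cholesterol the genotypes differed by −0.003 (−0.21 to 0.21).

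*Il6st* (chromosome 13, 112464070 to 112510086) had 70.5, 66.5, 56.6 and 71.8 CPM in WT_NF, 80.1, 80.2, 72.8 and 67.3 in WT_F, 85.0, 79.5 and 87.3 in KO_NF and 81.3, 81.6, 82.1 and 73.7 in KO_F. WT non-foamy libraries were below both Trem2-/- groups and overlapped WT foamy libraries. The non-foamy difference between genotypes was 0.34 (95% interval 0.17 to 0.50, adjusted p = 0.00144, edgeR) and the foamy one 0.09 (−0.07 to 0.24, adjusted p = 0.419, edgeR). The proportion of *Il6ra* to *Il6st* reads per kb stayed between means of 0.634 and 0.673 in the 4 groups, and the ranges overlapped in all 4 comparisons.

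Most ligands of these receptors had few or no reads. Of 20 ligand genes other than *Csf1*, 3 passed the filter on low counts and 7 had no read in any library, among them *Csf2* (GM-CSF), *Csf3* (G-CSF) and *Il3*. *Il10* had at most 8 reads and *Il6* at most 2 reads in any library. *Osm*, the ligand oncostatin M, was read at 8.39 to 10.5 CPM in the 15 libraries and was called in no comparison. *Ebi3*, a subunit of IL-27, was higher in KO_NF than in WT_NF (0.51, adjusted p = 0.0445, edgeR), and *Il34* was not called. Of 11 partner chains, 5 had no read in any library. Among them were *Il3ra* and *Il5ra*, the alpha chains of the IL-3 and IL-5 receptors, and *Osmr*, the oncostatin M receptor chain. Of the 3 that were tested, 2 were higher in Trem2-/- non-foamy cells, beside 21% of all genes. *Ifnlr1*, the interferon lambda receptor chain that pairs with *Il10rb*, rose from 1.16 ± 0.245 CPM in WT_NF to 4.20 ± 0.597 in KO_NF (log2 fold change 1.88, adjusted p = 4.31e-07, edgeR). With cholesterol it was 1.38 ± 0.383 CPM in WT and 4.05 ± 0.389 in Trem2-/- cells (1.55, adjusted p = 5.12e-06, edgeR). *Il20rb*, at under 1 CPM, was higher without cholesterol (1.08, adjusted p = 0.0266, edgeR).

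Of 10 tested Janus kinases and STATs, 4 were higher and none lower in Trem2-/- non-foamy cells, beside 21% of all genes higher and 22.6% lower. *Jak2*, the kinase of the beta chains, rose by 0.97 (adjusted p = 2.29e-07, edgeR), and *Jak1*, *Tyk2* and *Stat5b* by 0.19 to 0.28. With cholesterol *Jak2* was higher (0.53, adjusted p = 0.000386, edgeR). Of 17 tested inhibitors of receptor signalling, 7 were higher and 2 lower in KO_NF against WT_NF. In KO_F against WT_F, 4 were higher and 2 lower, beside 14.3% and 15.9% of all genes. *Socs6*, a SOCS adaptor for ubiquitin ligases, was higher in both (0.94 and 0.77), as was *Cblb*, a ubiquitin ligase for activated receptors (1.03 and 0.76). *Ptpn6*, the phosphatase SHP-1, was lower in both (−0.51 and −0.43). Neither list had a gene called for cholesterol in either genotype or for the interaction.

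Of 17 tested kinases and adaptors of CSF1R, 8 were higher and 3 lower in Trem2-/- non-foamy cells, beside 21% and 22.6% of all genes. With cholesterol 4 were higher and 3 lower, beside 14.3% and 15.9%. Their median log2 fold changes were 0.14 and −0.09. *Src*, a kinase recruited by CSF1R, rose with cholesterol in WT cells from 5.21 ± 0.464 to 7.40 ± 1.16 CPM (0.51, adjusted p = 0.0364, edgeR). In Trem2-/- cells it was 9.25 ± 1.11 CPM without and 7.59 ± 1.03 with cholesterol, and the interaction was −0.79 (adjusted p = 0.0235, edgeR). The adaptors *Grb2* (−0.39, adjusted p = 0.019, edgeR) and *Gab2* (−0.44, adjusted p = 0.0372, edgeR) also had a lower response in Trem2-/- cells. *Tyrobp*, the adaptor DAP12 of TREM2 and CSF1R signalling, was higher in Trem2-/- cells by 0.49 without and 0.46 with cholesterol (adjusted p = 0.00052 and 0.00108, edgeR). *Dok2*, an adaptor that dampens kinase signalling, was lower in both (−1.21 and −0.74). *Adam17*, a protease that sheds CSF1R and the IL-6 receptor, was the 1 called of 3 tested shedding genes and was higher in both (0.38 and 0.28).

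Among 11 target genes of STAT3 and IL-10, 7 were higher and 1 lower in non-foamy Trem2-/- cells, with a median log2 fold change of 0.32, beside 21% and 22.6% of all genes higher and lower. In foamy cells 4 were higher, with a median of 0.16, beside 14.3% of all genes. *Il4ra*, the IL-4 receptor chain, had the largest of the increases (0.64 and 0.57). *Cebpd*, a transcription factor at 2.05 CPM on average, was the 1 that was lower (−1.33, adjusted p = 0.00155, edgeR). *Socs3*, another STAT3 target, was counted with the inhibitors. It was called neither without nor with cholesterol between genotypes (0.24 and 0.38, adjusted p = 0.248 and 0.0666, edgeR). Over the mean of both treatments it was called higher (0.31, adjusted p = 0.0251, edgeR). Of 4 tested STAT5 targets, 1 was higher and 2 lower in each comparison of genotypes. The shares of all genes were the same as above (21% and 22.6% without cholesterol, 14.3% and 15.9% with it). The STAT5 targets *Cish*, at 0.772 CPM on average, and *Socs2* were counted with the inhibitors instead. Both were higher without cholesterol (1.03 and 0.64, adjusted p = 0.0304 and 0.000376, edgeR). With cholesterol neither was called (0.32 and 0.04). *Pim1*, a survival kinase, rose in WT cells with cholesterol from 9.36 ± 1.18 to 12.7 ± 1.28 CPM (0.43, adjusted p = 0.0264, edgeR) and was higher in KO_NF at 20.6 ± 2.52 CPM (1.13 over WT_NF, adjusted p = 2.32e-08, edgeR). Its interaction was −0.78 (adjusted p = 0.00508, edgeR). *Src* and *Pim1* were the 2 genes of these lists called for the WT response, both higher, beside 1.66% of all genes in that direction. The count was 0 without WT non-foamy replicate 1, WT foamy replicate 1 or WT foamy replicate 2. For the interaction 4 list genes were called, all below 0, beside 1.64% of all genes in that direction. They fell to 1 without WT foamy replicate 2, Trem2-/- non-foamy replicate 1 or Trem2-/- non-foamy replicate 2. *Pim2* and *Bcl2l1*, which also favour survival, were lower without cholesterol (−0.54 and −0.73) and with it (−0.53 and −0.87).

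**Figure D5:**
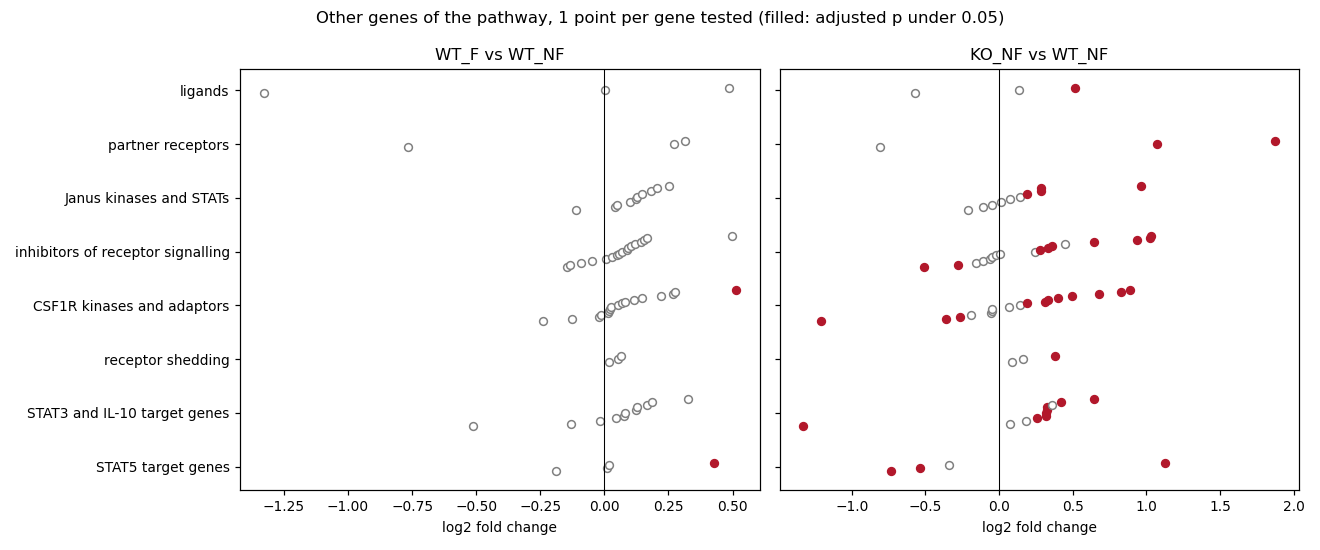
Log2 fold change (x axis) of each tested gene of the 8 lists of ligands, partner chains and signalling genes, for the WT response to cholesterol and for Trem2-/- against WT without cholesterol. Filled red points passed an adjusted p of 0.05 over all genes, 2 genes (*Src* and *Pim1*) on the left and 39 on the right. Of all 14237 tested genes, 399 and 6207 passed in these 2 comparisons.

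The genes whose log2 CPM followed each of the 10 most closely over the 15 libraries were chosen by Pearson's r among 11707 genes of at least 1 CPM, as a description of libraries that share the contrast of genotypes. *Csf1r* was followed most closely of all, by *Pnpla7* (r = 0.990), a lysophospholipase, and *Man2b1* (r = 0.984), a lysosomal mannosidase. *Il10rb* was followed by *Zeb2* (r = 0.983) and *Ccny* (r = 0.980), *Csf2rb* by *Pyroxd2* (r = 0.978) and *Acox3* (r = 0.969), and *Csf2rb2* by *Mtss1* (r = 0.977) and *Mertk* (r = 0.977), a receptor for apoptotic cells. *Il10ra* was followed by *Ctsa* (r = 0.976) and *Klc4* (r = 0.967), *Il6ra* by *Hipk1* (r = 0.962) and *Kmt2e* (r = 0.953), and *Il6st* by *Nfam1* (r = 0.953) and *Vps13d* (r = 0.947). The nearest genes of *Csf1* were *Etv3* (r = 0.944) and *Ncor1* (r = 0.935), those of *Csf3r* were *Ptms* (r = 0.917) and *Atp9a* (r = 0.912), and *Csf2ra* had the loosest fit, to *Acvr2b* (r = 0.856) and *Zgpat* (r = 0.831). *Csf2rb* and *Csf2rb2* correlated with each other at r = 0.943 over all libraries and at 0.792 once group means were removed, and *Csf1r* and *Csf2rb* at 0.914 and 0.931. *Il10rb* and *Csf1r* correlated at 0.856 over all libraries and at −0.152 within groups.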

How the data were processed

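The authors deposited 1 table of raw read counts per gene for each of 15 libraries, whole numbers without normalization. According to the methods, RNA was isolated and sequenced, and the processing used Trimmomatic, HISAT2 (GRCm38, given as mm10 in the submitters' processing notes) and featureCounts. Whether counting used strand, and how reads matching several genes were treated, is not given in the sources used here. Groups came from the sample titles, which do not say whether replicates were separate cultures, so p-values measure the spread between these samples, which may be technical.

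Counts were scaled with TMM factors, and filterByExpr (minimum count 10, smallest group 3 libraries) kept 14237 genes with 99.97% of counts. All libraries were fitted with 1 mean per group in edgeR 4.0.16 (R 4.3.3) with glmQLFit and glmQLFTest. Genes were called at a Benjamini-Hochberg adjusted p under 0.05 over all tested genes. The standard error was taken from the F statistic and intervals from its t distribution. The biological coefficient of variation was 10.2%. Within groups no library was a copy of another, since the chi-square per gene between replicates was 5.95 to 45.4. Libraries of different groups were not compared in this way. Ratios of reads per kb were tested with exact permutation tests. Exonic lengths, overlaps and coding sequences came from GENCODE M21 (GRCm38), coding sequences were aligned with Biopython 1.88, and promoters came from RefSeq. The scripts were tested on simulated data.

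The genes, the 8 pathway lists and the marker lists were chosen with earlier results of these data known. The genes named were all 10, *Trem2*, *Abca1*, *Cyp51*, and list genes called in both comparisons of genotypes with a mean absolute log2 fold change of at least 1 and at least 1 CPM or called for cholesterol or the interaction, besides the 2 nearest genes by correlation. Other list genes were named after their values were seen. Alternatives were DESeq2 1.42.0, RLE factors, library totals alone, no filter, at least 10 reads in every library, the compared groups alone, a replicate block, both beta chains summed, crossed treatments and each library left out. Leaving out both libraries that stood apart was added after the data were seen. 1 result on a pathway gene is not reported here.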

Additional observations from a re-analysis of the deposited data

Results flagged for a closer look

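Of 30 groups of 4 libraries (10 genes in 3 groups), 3 held a library whose gap to the nearest other exceeded Dixon's 95% limit, where chance gives about 1 in 20. *Csf2rb2* was lowest in WT non-foamy replicate 3, at 49.5 CPM against 54.9 to 55.8 in the other libraries. *Il10ra* was lowest in Trem2-/- foamy replicate 4, at 40.2 CPM against 48.2 to 49.7, and *Il6st* in the same library, at 73.7 CPM against 81.3 to 82.1. These are the 2 libraries that stood apart over all genes.

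The response to cholesterol differed between WT and Trem2-/- cells by −0.54 for *Csf2rb*, −0.71 for *Csf2rb2* and −0.40 for *Il10rb* on the log2 scale (interaction term, adjusted p = 0.0103, 0.00139 and 0.0224, edgeR). With both libraries that stood apart left out, 3 of the 10 interactions were called.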

How the results depend on the processing

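Of the 10 genes, the number called was 3 under most alternatives for the WT response (2 to 4), 0 under all for the Trem2-/- response, 6 to 9 for KO_NF against WT_NF, 1 to 5 for KO_F against WT_F (1 with library totals alone), 5 to 9 over the mean of treatments (5 with library totals alone, 9 without a filter) and 2 to 4 for the interaction. With the beta chains summed, the 2 count as 1 gene. Library totals alone also ended the calls of *Csf1*, *Il6ra* and *Il6st* without cholesterol and of the *Csf2rb* interaction (adjusted p = 0.0553, edgeR). Without a filter on low counts, *Csf1r* was called for the WT response (adjusted p = 0.0401) and *Csf1* for the interaction (adjusted p = 0.00781). Of the other pathway genes, 2 were called for the WT response, against 5 with DESeq2, 0 with library totals alone, 5 with no filter, 0 with the compared groups alone and 0 with the replicate block (0 to 4 with 1 library left out). The interaction had 4, against 8 with DESeq2 and 2 with the replicate block (1 to 6 with 1 library left out). Directions that turned were those of log2 fold changes near 0 that were not called. With library totals alone, *Csf2ra* was −0.085 for KO_NF against WT_NF, and *Csf2rb* −0.090 and *Il6st* −0.046 for KO_F against WT_F. With at least 10 reads in every library *Il6ra* was 0.000198 for KO_F against WT_F. With the replicate block *Csf3r* was 0.0038 for the Trem2-/- response and *Csf2ra* −0.022 for KO_NF against WT_NF. With crossed treatments *Csf1* was 0.24 and *Il6ra* 0.12 in place of KO_F against WT_F. Without both libraries that stood apart, *Csf3r* was 0.085 for the Trem2-/- response, *Csf1* 0.0098 and *Il6ra* 0.026 for KO_F against WT_F, and *Csf2ra* 0.083 over the mean of treatments. With 1 library left out, *Csf2ra* ranged from −0.131 to 0.169 for KO_NF against WT_NF, −0.152 to 0.026 for KO_F against WT_F, −0.252 to 0.047 for the interaction and −0.108 to 0.043 over the mean of treatments. For KO_F against WT_F, *Csf1* ranged from −0.119 to 0.013, *Csf2rb* from −0.012 to 0.131 and *Il6ra* from −0.060 to 0.085, and *Csf3r* ranged from −0.156 to 0.091 for the Trem2-/- response. The cause was not tested. The replicate block changed no call of the 10 genes. Same-numbered libraries did not deviate together (r over 0.1 in 1 of 21 pairs, −0.105 to 0.143), 4 of 15 libraries correlated best with their own number, and the numbers were not taken to pair samples.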
